A study of Homo sapiens with 23 samples.

Results

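The interferon-stimulated genes described here are 39 named genes, picked by their symbols among the 58358 genes of a table of RNA levels in 13 MCF10A lines. MCF10A is a non-transformed human mammary epithelial cell line that carries wild-type p53. The panel held 10 lines that express a V5-tagged missense p53 from a lentiviral pLenti4/V5-DEST vector beside the endogenous wild-type protein, and 3 control lines. Of the mutants, R248Q, R248W, R273C and R273H change residues that the study classes as DNA contacts, and G245S, H179R, R175H, Y163C, Y220C and Y234C are classed as structural. The controls were parental cells (WT), cells with an shRNA against p53 (WTKD) and cells with V5-tagged wild-type p53 in the pLX304 vector (WTOE). Cells were untreated, so no interferon was added, and each line gave 1 RNA library without a replicate. The mutants share a vector that no control carries, so effects of the mutation and of that vector cannot be told apart.

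Interferons are secreted proteins that a cell releases when its sensors meet foreign or misplaced nucleic acid. Type I interferons bind a receptor whose kinases, JAK1 and TYK2, phosphorylate STAT proteins, among them STAT2, which joins IRF9 in a factor that binds a DNA element called ISRE in the promoters of induced genes. Type II interferon acts through an element called GAS. The induced genes encode the factors themselves, RNA sensors, the ubiquitin-like protein ISG15 with its ligases and protease, RNA-binding IFIT proteins, OAS enzymes, antiviral GTPases and membrane proteins that block virus entry or release. Epithelial cells keep part of these genes active at a low level without added interferon.

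Levels are given as deposited, as log2(TPM+1), where TPM is the number of transcripts per 1000000 transcripts, a unit that is corrected for gene length. The table holds no read counts, so sequencing depth is unknown for every line and a value listed at 0 cannot be given an upper limit. The paper reports high rates of duplicated reads in the RNA libraries. It also reports a large share of mitochondrial reads that varied between samples. The part of both in low values and in values listed at 0 was not tested. The libraries listed between 12122 genes (R273H) and 15975 genes (Y163C) above 0, and the 50 genes of highest TPM took 27.1% to 46.8% of all TPM, most in Y234C. R273H and Y234C stood apart from the other libraries, with 35.2% and 42.3% of all genes tested at least 2-fold below the median of the other 12 lines. Of 8 basal epithelial markers, KRT5, a basal keratin, lay between 9.97 and 11.85 in all 13 lines, whereas KRT14 ranged from 0.00 to 8.23 and TP63 was listed at 0 in R248W, R273C and R273H. In contact against structural mutants 7 of the 8 had a lower mean, with a median difference of -1.67 and 3 at an unadjusted p under 0.05 (limma), and the part of this in the results was not tested. The leukocyte markers PTPRC, CD3E, CD4 and ITGAM were listed at 0 in every line, whereas CD14 reached 5.64 in WT and CD68 3.76 in R273H. No check of the control lines against their labels is reported here, so values from WTOE are given as those of the library labelled WTOE.

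Promoter sequences give the elements that each gene carries for these factors. RefSeq promoters on GRCh38.p14, from 250 bases before to 50 bases after each start, were matched for 32 of the 39 genes, with DDX58 found under its newer symbol RIGI. IRF7, USP18, IFIT2, OAS2, OASL, MX2 and IFITM2 had no entry. The core of the ISRE was searched as TTTC, any 2 bases and TTTC on both strands and that of the GAS as TTCNNNGAA, and matches may overlap. An ISRE core lay in a promoter of 21 of the 32 genes (65.6%), against 4.38% of 27305 genes with a promoter entry. A GAS core lay in 10 of the 32 (31.2%), against 9.38% of all. A match is a description of letters and not evidence of binding. The promoters of BST2, ISG15, IRF9 and IFITM3, which had the lines farthest from the rest or the lowest p, are shown first, 5′ to 3′, with ISRE cores in capitals. In IRF9, which had no ISRE core in this window, the capitals mark its GAS core.
BST2 (chr19:17405581-17405880, strand -): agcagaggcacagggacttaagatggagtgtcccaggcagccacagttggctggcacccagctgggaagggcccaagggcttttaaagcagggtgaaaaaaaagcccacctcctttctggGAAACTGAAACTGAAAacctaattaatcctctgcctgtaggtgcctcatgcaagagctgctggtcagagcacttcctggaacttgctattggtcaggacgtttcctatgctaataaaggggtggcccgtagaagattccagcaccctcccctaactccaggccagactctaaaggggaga
ISG15 (chr1:1013247-1013546, strand +): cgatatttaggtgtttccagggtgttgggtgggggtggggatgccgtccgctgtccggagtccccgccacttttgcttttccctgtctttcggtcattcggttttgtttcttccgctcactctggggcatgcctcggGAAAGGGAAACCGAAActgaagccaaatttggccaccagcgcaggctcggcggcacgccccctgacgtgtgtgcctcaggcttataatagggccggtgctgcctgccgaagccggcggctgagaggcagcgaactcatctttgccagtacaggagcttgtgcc
IRF9 (chr14:24161015-24161314, strand +): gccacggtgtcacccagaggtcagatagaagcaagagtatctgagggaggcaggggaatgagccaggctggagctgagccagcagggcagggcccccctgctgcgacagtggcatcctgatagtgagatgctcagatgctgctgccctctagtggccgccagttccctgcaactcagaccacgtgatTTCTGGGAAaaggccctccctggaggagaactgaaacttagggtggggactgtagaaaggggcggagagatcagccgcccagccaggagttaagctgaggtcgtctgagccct
IFITM3 (chr11:320811-321110, strand -): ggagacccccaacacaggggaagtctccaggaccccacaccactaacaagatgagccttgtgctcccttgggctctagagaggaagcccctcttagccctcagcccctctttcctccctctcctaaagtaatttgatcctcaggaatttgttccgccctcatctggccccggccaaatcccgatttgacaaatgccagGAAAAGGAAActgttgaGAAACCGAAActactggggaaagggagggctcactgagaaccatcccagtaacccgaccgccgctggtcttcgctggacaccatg

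In BST2 the overlapping ISRE cores started 130 and 124 bases before the start site, and in ISG15 they started 113 and 107 bases before it. IFITM3 held its cores 52 and 35 bases before the start site and the IRF9 GAS core lay 63 bases before it. The next windows of 30 bases each hold one ISRE core of a gene described further on, again in capitals. The DTX3L core is also the core of a PARP9 promoter, since these neighbours are read in opposite directions from the same stretch.
IFI6 (chr1:27672266-27672295, strand -): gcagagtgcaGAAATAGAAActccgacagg
IFI27 (chr14:94110618-94110647, strand +): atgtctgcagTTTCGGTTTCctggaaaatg
IFI44 (chr1:78649761-78649790, strand +): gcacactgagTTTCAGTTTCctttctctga
IFIT5 (chr10:89414554-89414583, strand +): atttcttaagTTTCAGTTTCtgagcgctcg
OAS3 (chr12:112938452-112938481, strand +): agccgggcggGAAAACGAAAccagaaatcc
DTX3L (chr3:122564322-122564351, strand +): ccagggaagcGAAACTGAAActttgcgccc
SAMD9 (chr7:93118096-93118125, strand -): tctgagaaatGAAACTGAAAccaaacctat

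Among the genes with a promoter entry that passed the filter on low values, the 17 with an ISRE core had a median SD over the 13 lines of 1.15 on the log2 scale, and the 9 without one had 1.28. Their medians of the difference between mutant and control lines were both 0.73. The difference was positive in 16 of the 17 and in 6 of the 9, beside 45.0% of all genes tested. IFI44, IFIT1 and SAMD9L among these passed the filter only through the mutants, where they had to be higher. The median level was 3.48 with an ISRE core and 2.27 without one, and no test compared these groups.

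A filter on low values asked for a level of 1 or more in no fewer than 3 lines, which 31 of the 39 genes and 14884 genes in all passed. The 8 that did not were OAS2, MX1, MX2, RSAD2, CMPK2, ISG20, IFITM1 and XAF1. These include several of the genes that respond most strongly to interferon, such as the antiviral GTPase MX1 and the radical SAM enzyme RSAD2. MX2 and XAF1 were listed at 0 in all 13 lines, and MX1 was above 0 only in R248W, at 1.33. RSAD2 was above 0 in R248W and G245S only, at 0.38 and 0.48. CMPK2, a nucleotide kinase that neighbours RSAD2, reached 3.04 in R175H, IFITM1 reached 3.19 in G245S and ISG20, an exonuclease, 3.05 in Y234C. OAS2 was highest in R273C, at 1.81. In bulk RNA, fewer expressing cells and less RNA per cell cannot be told apart.

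**Figure D1:**
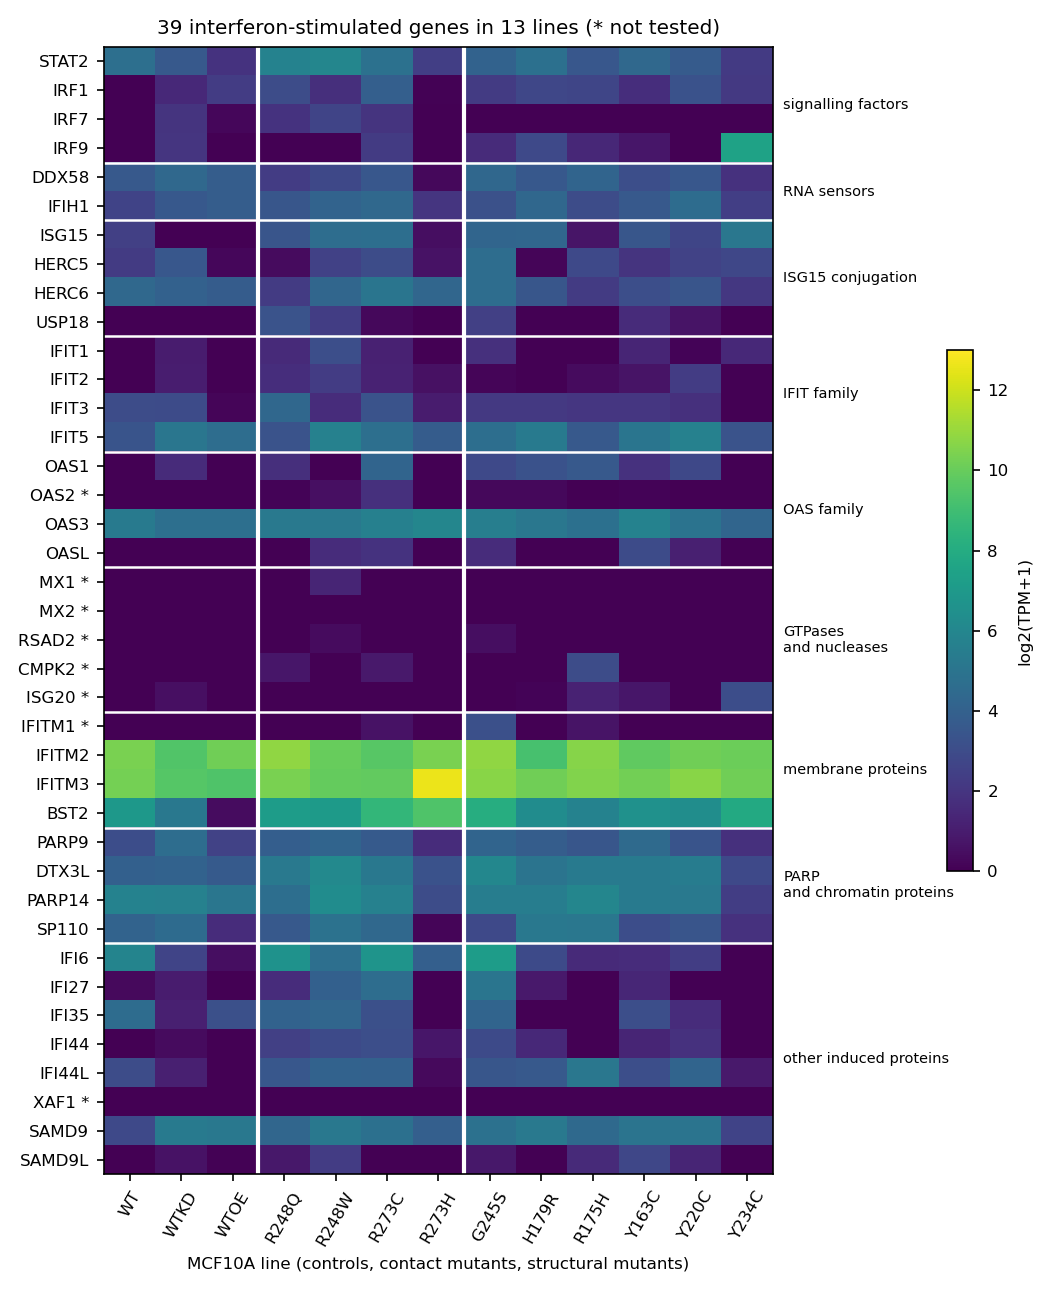
The heat map shows log2(TPM+1) of the 39 genes (rows, grouped by role) in the 13 lines (columns, controls first, then contact and structural mutants), with an asterisk for the 8 genes that did not pass the filter. IFITM2, IFITM3 and, outside the library labelled WTOE, BST2 form the bright band, while the GTPases and nucleases are dark in nearly all lines.

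The level of the list as a whole differed widely between lines. Its median over the 31 tested genes was highest in G245S (4.19), R273C (4.17) and R248W (4.13) and lowest in the library labelled WTOE (0.48), in R273H (0.62) and in Y234C (1.86). Against the median of the other 12 lines, 15 of the 31 genes were at least 2-fold higher in R248W, where 17.2% of all genes tested were, and 2 were at least 2-fold lower, where 7.51% of all were. In R273C 12 genes were higher (18.2% of all genes) and none was lower (4.78%). In G245S 12 were higher (15.0%) and 1 was lower (9.41%). R248Q had 9 higher (18.6%) and 5 lower (12.7%). These shares of members passed 2-fold upward more often than the whole table did, with a single library behind each, so no test was possible.

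The lowest libraries differed in how far the whole table moved with the list. In the library labelled WTOE, 14 of the 31 genes were at least 2-fold lower and none was higher, beside 13.7% and 15.0% of all genes. In R273H 16 were lower and 3 higher, where 35.2% and 11.5% of all genes were. In Y234C 17 were lower and 3 higher, where 42.3% and 10.6% were. The median difference of the list was -1.09 in R273H and -1.17 in Y234C, and that of all genes tested was -0.49 and -0.71. For the library labelled WTOE the list stood at -0.84 and all genes at 0.00. The split depended on the scaling. After quantile normalization, an alternative chosen after seeing the data, R273H had 7 genes of the list higher (20.6% of all genes) and 9 lower (19.8%), Y234C had 5 higher (21.2%) and 9 lower (20.7%), and the library labelled WTOE had 1 higher (15.8%) and 12 lower (12.4%). The other lines had smaller counts, with 2 higher and 9 lower in WT (14.4% and 15.9% of all genes), 5 and 6 in WTKD (16.7% and 7.36%), 4 and 3 in H179R (16.9% and 8.1%), 5 and 8 in R175H (12% and 13.8%), 3 and 1 in Y163C (17.2% and 4.06%) and 6 and 3 in Y220C (18.0% and 7.28%). The number of list genes above 0 in a line ranged from 21 (WT, the library labelled WTOE, and Y234C) to 33 (R273C and G245S). Over the 13 lines it had a Pearson r of 0.762 with the number of all genes above 0, so both measures move together, and the part of library detection in the differences was not tested.

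**Figure D2:**
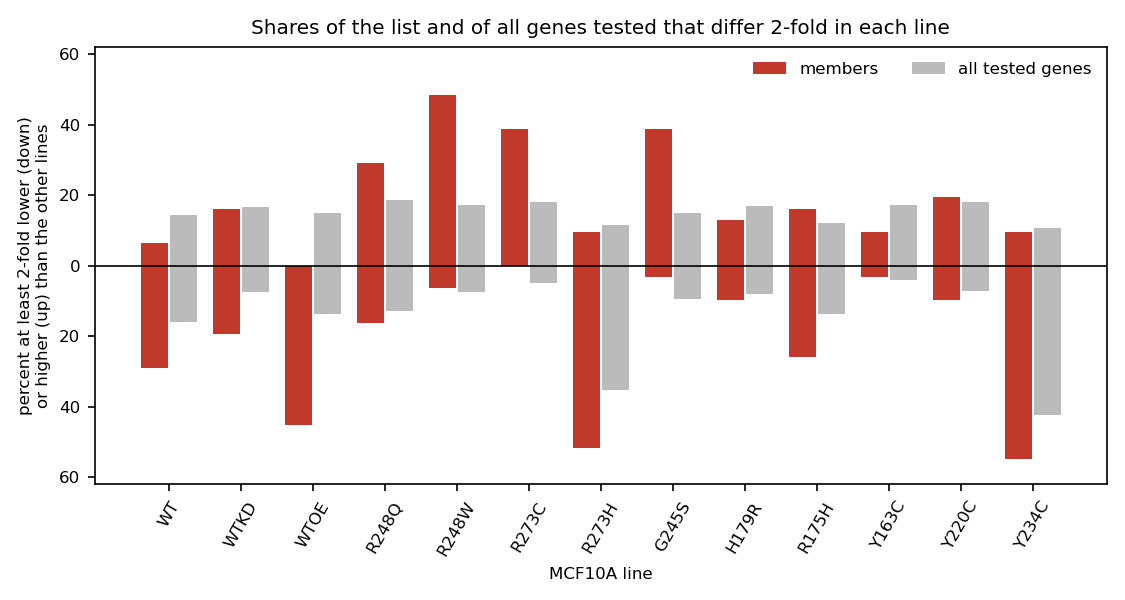
Bars give, for each line, the percent of the 31 tested genes of the list (red) and of all 14884 genes tested (grey) that lie at least 2-fold above (upward) or below (downward) the median of the other 12 lines. R248W, R273C and G245S have the tallest upward red bars, with 48.4%, 38.7% and 38.7%, and the library labelled WTOE has no upward red bar.

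The first comparison asks whether lines with a missense p53 differ from the control lines. No gene of the list passed an adjusted p of 0.05 (limma, Benjamini-Hochberg over 14884 genes), where 0.0202% of all genes did. The lowest adjusted p in the list was 0.659, for BST2. At an unadjusted p under 0.05, 4 of the 31 genes were higher in the mutants, where 1.93% of all genes were, and none was lower, where 2.9% were. They were BST2, ISG15, IFI44 and IFI44L. In 26 of 31 genes the mean was higher in the mutants, beside 45.0% of all genes, and the median difference was 0.73 against -0.08 over all genes. IFI44, IFIT1, OASL, SAMD9L and USP18 reached a level of 1 in no control and so passed the filter only through the mutants, where they had to be higher. Of the other 26 genes 21 were higher, beside 40.2% of all genes with such a line in both groups. The median difference was 0.25 for these 26 genes and -0.14 for all such genes. The median difference of the 31 genes was 0.27 under a pseudocount of 5, and it was 0.18 over the genes left when a level of 3 in 3 lines was asked for. Without the library labelled WTOE the difference was positive in 20 of 31 genes (44.0% of all), its median was 0.44, and no gene of the list had an unadjusted p under 0.05 upward (1.5% of all), so this single control weighs heavily. When the count of genes above 0 entered the model, 19 of 31 were positive, with a median of 0.54 against -0.18 over all genes. The share of all genes that were positive in that fit was not counted. No gene of the list separated all 10 mutants from all 3 controls, as 0.222% of all genes did upward and 0.779% downward.

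BST2 encodes tetherin, a membrane protein that holds newly formed virus particles at the cell surface. Its level was 6.91 in WT, 5.19 in WTKD and 0.41 in the library labelled WTOE. The mutant lines lay between 5.79 (R175H) and 9.45 (R273H) with a median of 7.13. The library labelled WTOE stood apart from every other line, while WT lay within the range of the mutants. The mutant mean was higher by 3.16 ± 1.01 (SE, limma, 10 against 3 lines, unadjusted p = 0.00624, adjusted p = 0.659), and the exact two-sided permutation test over the 286 regroupings of the lines gave p = 0.0210. Leaving out 1 line at a time moved the difference between 1.28 and 4.53, and the lowest was without the library labelled WTOE. The BST2 gene lies at chr19:17402939-17405630 on the minus strand and no other annotated gene overlaps it.

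ISG15 is a ubiquitin-like protein that is attached to other proteins during an interferon response. It was at 2.45 in WT and listed at 0 in WTKD and in the library labelled WTOE. Among the contact mutants it was at 3.43 in R248Q, 4.64 in R248W, 4.67 in R273C and 0.48 in R273H. Among the structural mutants it ranged from 0.75 (R175H) to 5.16 (Y234C) with a median of 3.85. In 8 of 10 mutants it exceeded the highest control, and R273H and R175H were the exceptions. The difference was 2.57 ± 0.92 (SE, limma, unadjusted p = 0.0126, adjusted p = 0.823), with an exact permutation p of 0.0210. Genes on the opposite strand overlap the annotation of ISG15 and of 20 of the 39 genes in all. The strand used in counting is not given in the sources used here, so reads of such partners cannot be told apart.

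ISG15 is attached through a dedicated set of enzymes. UBE2L6, which is not one of the 39 genes, is the conjugating enzyme of this set and was taken from a list of other induced genes. It was at 0.46 in WT, 0.00 in WTKD and 0.28 in the library labelled WTOE. In 9 mutant lines it ranged from 3.98 (Y220C) to 5.69 (R248W), whereas R273H was at 0.48 and so at the level of the controls. The mutant mean was higher by 4.38 ± 0.86 (SE, limma, adjusted p = 0.180). UBE2L6 reached a level of 1 in no control, so it passed the filter only through the mutants. Leaving out R273H, the one mutant that goes against the difference, gave 4.84 ± 0.50 (SE, limma, adjusted p = 9.9e-04), which describes the other 9 lines and supports nothing further. No other single line brought the adjusted p under 0.05 when left out. HERC5, the main ligase for ISG15 in human cells, ranged from 0.19 (H179R) to 4.62 (G245S), and WTKD was among its highest lines at 3.55. HERC6, a related protein, had the highest mean of the group, from 2.12 (Y234C) to 5.03 (R273C). USP18, which removes ISG15 and dampens receptor signalling, was listed at 0 in all 3 controls and in 4 mutants, and was highest in R248Q (3.32), G245S (2.48) and R248W (2.38). R248Q combined the highest USP18 of the panel with a HERC5 of 0.37, and H179R combined a UBE2L6 of 5.68 with a HERC5 of 0.19.

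**Figure D3:**
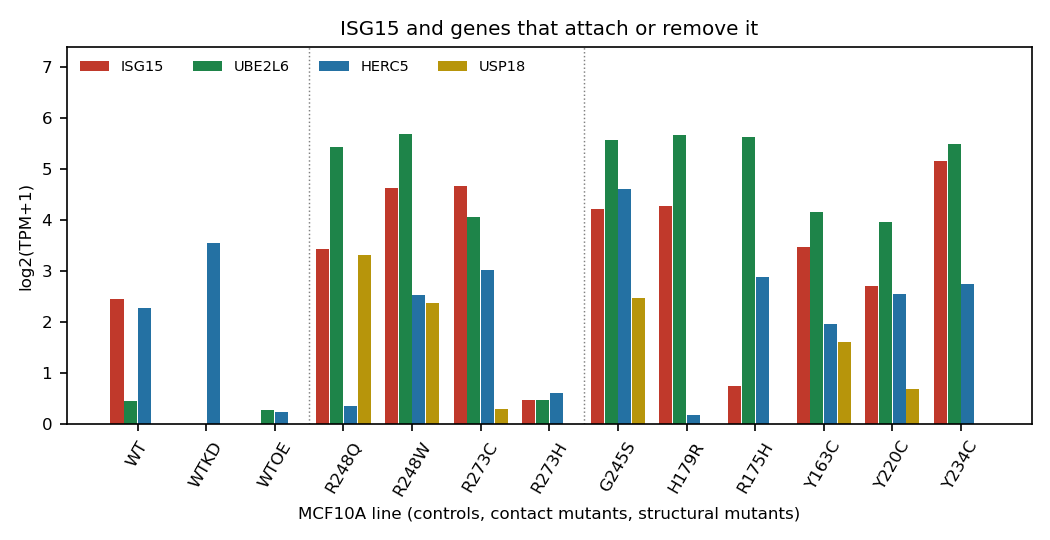
Bars give log2(TPM+1) of ISG15, its conjugating enzyme UBE2L6, the ligase HERC5 and the protease USP18 in each line, with dotted lines between controls, contact mutants and structural mutants. UBE2L6 is near 0 in the 3 controls and in R273H and between 3.98 and 5.69 in the other 9 mutants.

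IFI44 and its neighbour IFI44L on chromosome 1 encode related cytoplasmic proteins. IFI44 was listed at 0 in WT and in the library labelled WTOE and was at 0.37 in WTKD. The mutants ranged from 0.00 (R175H and Y234C) to 3.11 (R273C) with a median of 1.66, so the groups overlapped through R175H and Y234C. The difference was 1.57 ± 0.67 (SE, limma, unadjusted p = 0.0310, adjusted p = 0.932), and the exact permutation p was 0.0594, for a gene that passed the filter only through the mutants. IFI44L was at 3.04 in WT, 1.13 in WTKD and 0.00 in the library labelled WTOE. The mutants ranged from 0.34 (R273H) to 5.17 (R175H) with a median of 3.58, a difference of 1.85 ± 0.88 (SE, limma, unadjusted p = 0.050, adjusted p = 0.932), with an exact permutation p of 0.0769. Without the library labelled WTOE the IFI44L difference was 1.16, and its unadjusted p was under 0.05 in 3 of the 13 fits that each left out 1 line. R175H thus held the highest IFI44L and no listed IFI44.

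OAS1 and DTX3L followed in order of p. OAS1 makes the second messenger that activates RNase L. It was listed at 0 in WT, in the library labelled WTOE and in R248W, R273H and Y234C, was at 1.61 in WTKD, and reached 4.17 in R273C. DTX3L, a ubiquitin ligase that works with PARP9, was at 4.01, 4.10 and 3.71 in WT, WTKD and the library labelled WTOE. Its 8 mutants other than R273H (3.27) and Y234C (2.88) lay between 5.02 and 6.12, above all controls. Its difference was 1.04 ± 0.62 (SE, limma, adjusted p = 0.932), and R273H and Y234C are the libraries in which the whole table was low.

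**Figure D4:**
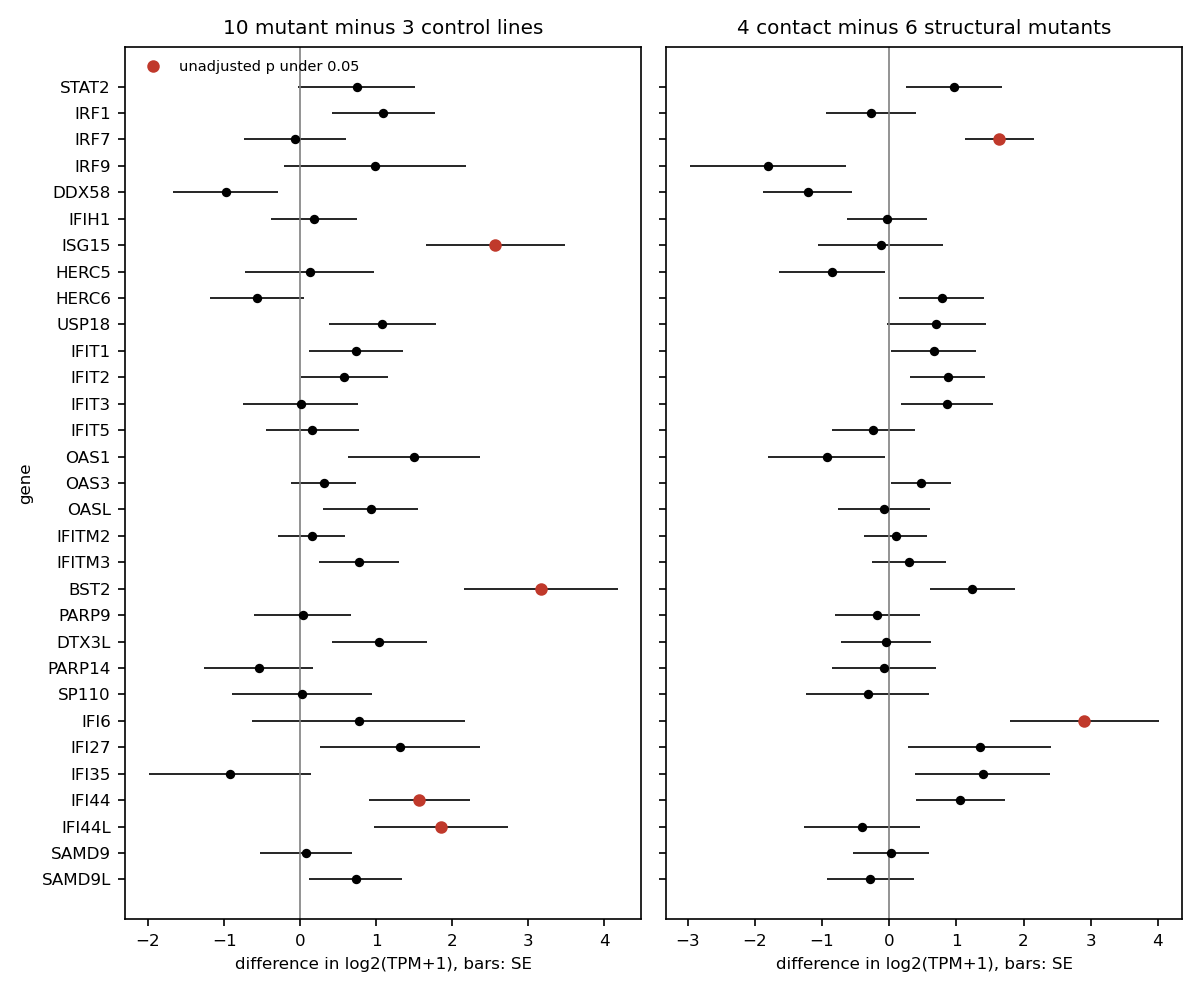
Points give the difference in mean log2(TPM+1) with its SE for the 31 tested genes, mutant minus control lines on the left and contact minus structural mutants on the right, with red points for an unadjusted p under 0.05. BST2 at 3.16 and ISG15 at 2.57 lie farthest right on the left side, and IFI6 at 2.90 on the right side.

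The second comparison asks whether the contact and structural classes differ. No gene of the list passed an adjusted p of 0.05 (limma, over 14884 genes), and 0.0% of all genes did, with 734 of them at an unadjusted p under 0.05. In the list, 2 genes had an unadjusted p under 0.05 and a higher mean in contact mutants, IRF7 and IFI6, where 2.86% of all genes did, and none a lower mean, where 2.07% did. The difference was positive in 16 of 31 genes, beside 50.4% of all, and its median was 0.03 against 0.01 over all genes. Without R273H the median was 0.51, beside 0.18 over all genes. In that fit 24 of 31 were positive (62.4% of all genes) and 5 had an unadjusted p under 0.05 upward (4.29% of all). It kept Y234C, the low library of the structural class. Without both, the median was 0.24, beside 0.04 over all genes, and 22 of 31 were positive. There 3 genes had an unadjusted p under 0.05 upward (limma), as 715 of 14884 genes did. Without Y234C alone the median was 0.08, beside -0.15 over all genes, and 16 of 31 were positive. The share of all genes that were positive was not counted in these fits. No gene separated all 4 contact from all 6 structural mutants, as 0.766% of all genes did upward and 0.262% downward.

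IRF7, the factor that amplifies type I interferon production, was at 1.91 in R248Q, 2.67 in R248W and 1.96 in R273C and listed at 0 in R273H. It was listed at 0 in all 6 structural mutants and in WT, and was at 1.97 in WTKD and 0.22 in the library labelled WTOE. The contact mean was higher by 1.64 ± 0.51 (SE, limma, 4 against 6 lines, unadjusted p = 0.00678, adjusted p = 0.960), and the exact permutation p over 210 regroupings was 0.0333. IRF7 reached a level of 1 in no structural mutant, so within this comparison it passed the filter only through the contact mutants. Its level in WTKD lay within the range of the contact mutants. IFI6, a small mitochondrial protein, was at 6.63 in R248Q, 4.77 in R248W, 6.72 in R273C and 3.92 in R273H. Among the structural mutants it was highest in the panel in G245S (7.20), while the other 5 lay between 0.00 (Y234C) and 2.92 (H179R). Its difference was 2.90 ± 1.11 (SE, limma, unadjusted p = 0.0206, adjusted p = 0.960), and the exact permutation p was 0.0810. Among controls IFI6 was at 5.87 in WT, 2.66 in WTKD and 0.48 in the library labelled WTOE.

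The next genes by p did not pass even the unadjusted threshold. BST2 was higher by 1.24 ± 0.63 in contact mutants and IFI44 by 1.06 ± 0.66. IFIT2, an RNA-binding protein, differed by 0.87 ± 0.56 and was highest in R248W (2.31) and Y220C (2.29). DDX58 encodes the RNA sensor RIG-I and pointed the other way, at -1.21 ± 0.67, with 2.30 in R248Q, 2.81 in R248W, 3.53 in R273C and 0.28 in R273H against 1.86 to 4.34 in structural mutants. Each error is the SE of limma over 4 and 6 lines. Without R273H the difference was 0.78 for BST2 and -0.56 for DDX58.

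**Figure D5:**
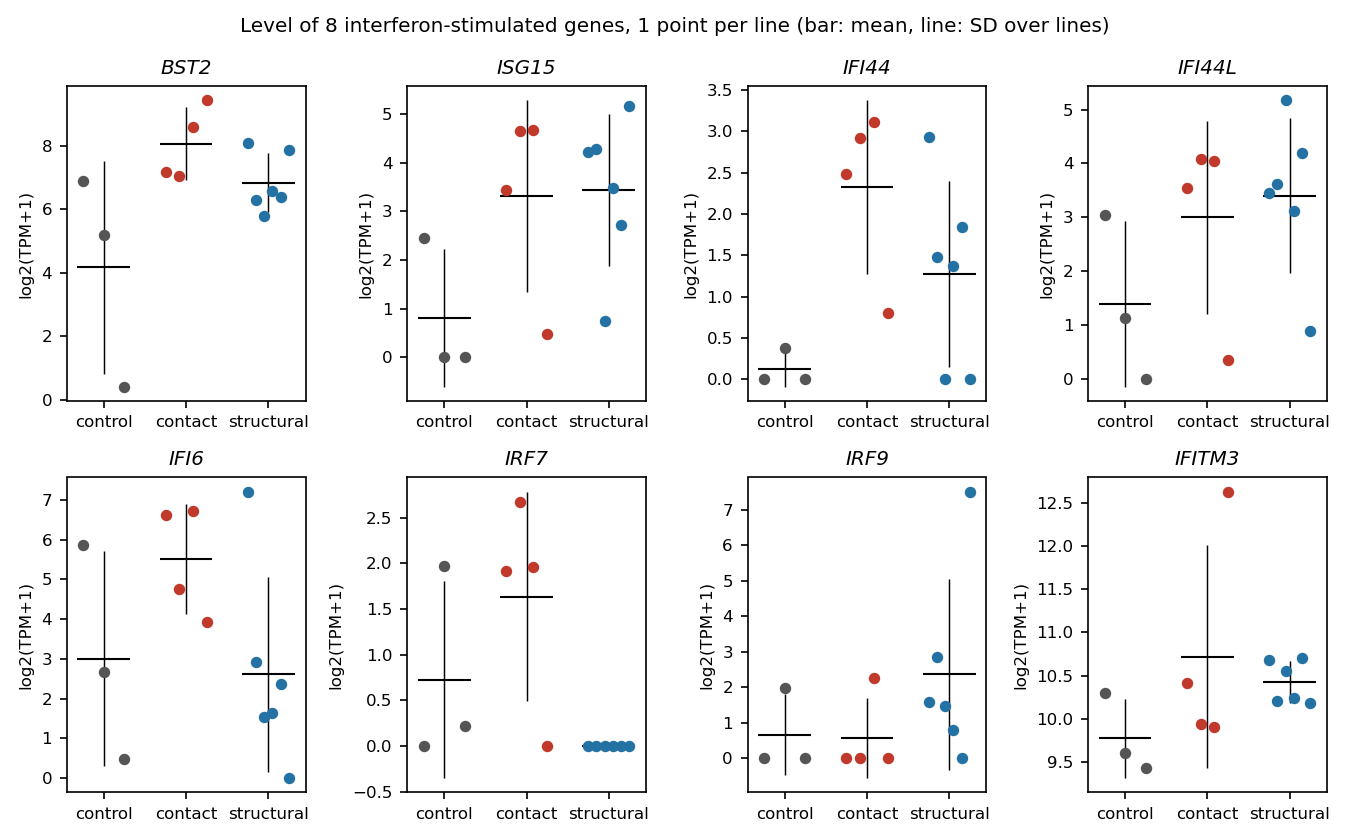
Each point is the log2(TPM+1) of one line for 8 genes of the list, with the mean (bar) and SD (line) over 3 control, 4 contact and 6 structural lines. The library labelled WTOE is the low point of BST2 at 0.41, and Y234C and R273H are the isolated high points of IRF9 at 7.51 and IFITM3 at 12.63.

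The signalling factors behaved in different ways. STAT2 was above 0 in all 13 lines and highest in R248W (5.98) and R248Q (5.74), with the lowest level in the library labelled WTOE (1.91). It tracked the list best, with a Pearson r of 0.836 with the median profile of the tested genes, of which it is one. IRF9, the DNA-binding partner of STAT2, was listed at 0 in 6 lines, lay between 0.79 and 2.86 in 6 others, and was at 7.51 in Y234C. In that line STAT2 was at 2.21, while ISG15 was at its highest. In R273H STAT2 was at 2.43 and IRF9 was listed at 0. IRF1, an early factor of the response, ranged from 0.00 in WT to 3.95 in R273C.

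Some genes for sensors, IFIT and OAS proteins were above 0 in all 13 lines. IFIH1, the RNA sensor MDA5, lay between 1.99 (R273H) and 4.60 (Y220C). IFIT5 was the most abundant IFIT gene, from 3.30 (Y234C) to 5.71 (R248W), whereas IFIT1 and IFIT2 did not exceed 3.11 in any line. IFIT3 was at 4.35 in R248Q and listed at 0 in Y234C. OAS3 had an SD of 0.49, with 4.26 (Y234C) to 5.98 (R273H), and so differed least among the genes of the list that passed the filter. OASL, an OAS relative without synthase activity, was above 0 in only 5 lines and highest in Y163C (2.96). SAMD9, a cytoplasmic antiviral factor, lay between 2.59 (Y234C) and 5.31 (WTKD).

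IFITM2, IFITM3 and BST2, all membrane proteins, had the highest means of the list. IFITM2 and IFITM3 restrict virus fusion in endosomes and are near-identical neighbours on chromosome 11, so reads could be split between them and their separate values are uncertain. IFITM2 ranged from 9.21 (H179R) to 10.85 (R248Q). IFITM3 ranged from 9.42 (the library labelled WTOE) to 10.70 (Y220C) in 12 lines and was at 12.63 in R273H. In R273H BST2 was at its highest as well, whereas 16 of the 31 tested genes were at least 2-fold below the other lines. BST2, IFI6 and IFITM3 were the 3 that passed 2-fold upward there, and after quantile normalization HERC6, IFI44, IFIT2 and OAS3 passed as well.

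The remaining induced proteins included some of the most variable genes. IFI27 was at 5.05 in G245S, 4.65 in R273C and 3.97 in R248W, at 1.64 or less in the other lines, and listed at 0 in 5 of these. IFI35 was at 4.60 in WT and 4.29 in R248W and listed at 0 in R273H, H179R, R175H and Y234C. PARP14, an ADP-ribosyl transferase, was at 4.68 to 6.30 in 11 lines and at 3.0 and 2.36 in R273H and Y234C. SP110, a nuclear body protein, was at 5.19 in H179R and 5.18 in R175H, and at 0.16 in R273H. PARP9, the partner of DTX3L, ranged from 1.65 (R273H) to 4.64 (WTKD), and SAMD9L, a relative of SAMD9, was listed at 0 in 5 lines and highest in Y163C (2.75). The SD over the 13 lines was 2.45 for IFI6, 2.19 for BST2, 2.1 for IRF9, 1.89 for ISG15, 1.87 for IFI27, 1.85 for IFI35, 1.66 for IFI44L and 1.57 for OAS1. The median SD of the tested genes of the list was 1.15, against 0.95 over all genes tested.

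Across the lines the genes formed only a loose group. The median Pearson r over 465 pairs of tested genes was 0.277, against 0.106 over all pairs of tested genes, and 22.2% of pairs exceeded 0.5, against 11.7% of all pairs. These correlations rest on 13 points that share library detection. Without R273H, Y234C and the library labelled WTOE the median r within the list was 0.115. The median over all pairs of tested genes was not computed without these libraries, so 0.115 cannot be set against 0.106. The closest pairs were IFI44 with IFI27 (0.845), IFI44L with DTX3L (0.843) and IFIT5 with SAMD9 (0.822).

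Single libraries were compared to see how loss or gain of wild-type p53, and other changes of the same residue, went with the list. These pairs have no replicate and no test. WTKD against WT had 9 genes at least 2-fold higher (25% of all genes) and 6 lower (15.4%). The largest of these were IFI35 (-3.46), IFI6 (-3.21) and ISG15 (-2.45) on the log2 scale. For the libraries labelled WTOE and WT, 4 genes were higher in WTOE (20.4%) and 9 lower (18.0%), led by BST2 (-6.50), IFI6 (-5.38) and IFI44L (-3.04). Both pairs share the WT library.

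R248W against R248Q had 10 genes higher (22.4%) and 4 lower (17.4%). The log2 difference was -2.72 for IFIT3, and IFIT5 and IFI27 were higher by 2.39 and 2.33. R273H against R273C had 21 genes lower (44.0% of all genes) and 1 higher (10.4%). The largest were IFI27 (-4.65), SP110 (-4.23) and ISG15 (-4.19), and the gene that was higher was IFITM3. The members' share of 67.7% lower stands beside a table in which many genes were lower in the same library, and the part of that in the result was not tested.

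The other genes of the pathway come from lists of ligands, receptors, inducers and regulators. Of 21 interferon genes, 17 were listed at 0 in every line and none passed the filter. The others were IFNK, a keratinocyte interferon, at 2.59 in Y234C, IFNA8 at 1.7 in the library labelled WTOE, IFNA1 at 0.60 in Y163C and IFNE at 0.42 in R273C, each in 1 line only. All 11 genes for receptors and kinases passed the filter. None of them was called or had an unadjusted p under 0.05 in either comparison, and the receptor chain IFNAR1 ranged from 2.90 (Y234C) to 5.22 (H179R). Of 13 genes of the induction pathway 11 were tested and none was called in either comparison. For contact against structural mutants 2 of them were higher at an unadjusted p under 0.05 (limma), IKBKE (2.34) and IRF5 (1.67), and CGAS, a DNA sensor, was lower (-1.72). IKBKE, a kinase that activates IRF3 and IRF7, was at 8.57 in R273H and at 1.48 to 5.81 elsewhere. Without R273H its difference was 1.39 and that of CGAS was -0.97. Among 7 tested negative regulators none was called, and SOCS3, an inhibitor of JAK kinases, was higher in mutants by 1.64 (limma, unadjusted p = 0.0344). PTPN6, a phosphatase, was higher in contact than in structural mutants by 1.59 (limma, unadjusted p = 0.0327). Among 27 tested further induced genes none was called in either comparison, with 1 at an unadjusted p under 0.05 upward in the mutants (UBE2L6) and 1 downward. The latter was TRIM22, an antiviral ubiquitin ligase known as a p53 target, which was at 3.41 to 4.67 in the controls and 0.00 to 3.90 in the mutants, a difference of -2.12 (limma, unadjusted p = 0.0159). TRIM22 was also lower in contact than in structural mutants, by a difference of -2.10 (limma, unadjusted p = 0.00444). PARP10, an ADP-ribosyl transferase, was higher in contact mutants by 1.73 (limma, unadjusted p = 0.0156), and by 1.12 without R248Q.

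V5-tagged p53 bound to chromatin was mapped by ChIP-seq in 5 lines, with 1 peak list each. A gene was counted when a peak summit lay from 2500 bp upstream to 100 bp downstream of an annotated start site. None of the 39 genes had such a peak in Y220C (0.367% of all annotated genes had one), R273C (0.052%), R273H (1.77%) or Y234C (0.703%). In the WTOE list 2 of 39 did, OASL and ISG20, where 3.27% of all genes did. The OASL summit lay at position 121033257 of chromosome 12 on GRCh38, 615 bp upstream of an annotated start and inside the OASL gene, with a 2.86-fold enrichment over input and a −log10 q of 1.41. The ISG20 summit lay at position 88636227 of chromosome 15, 57 bp downstream of a GENCODE start but 2789 bp upstream of the RefSeq one, with a 3.74-fold enrichment and a −log10 q of 2.98. Neither 300-base window around these summits held a p53 decamer, which 6.96% of the 10889 WTOE summits on assembled chromosomes had. The paper reports the canonical p53 motif in a larger share of its WTOE peaks, by its own motif search, so the shares cannot be compared directly. Both genes were listed at 0 in the RNA of the library labelled WTOE. BST2 and ISG15 had no summit within 10000 bp in any of the 5 lists.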

How the data were processed

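Total RNA of 13 MCF10A lines was sequenced after NuGEN Ovation amplification. The authors aligned reads with STAR to Ensembl GRCh38 release 92, counted them per gene, marked duplicates with Picard, left out mitochondrial RNA and deposited the table as log2(TPM+1). After back-transformation each column sums to 1000000. The gene lengths used are not given in the sources used here, and amplification can raise the spread of low genes. For ChIP-seq with a V5 antibody the authors used Bowtie2 2.1.0, SAMtools 1.7 and MACS2 2.1.2.20181017 with input DNA as control and a q limit of 0.05. The deposited lists hold a score, a fold enrichment ratio at the summit and −log10 values of p and q, and give 733 (R273C) to 25309 (R273H) peaks. A WT V5 list was not analysed here.

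Genes that reached a level of 1 in 3 or more lines were tested with limma 3.58.1 in R 4.3.3, two-sided, with Benjamini-Hochberg adjustment over 14884 genes. A fold change is on the log2(TPM+1) scale, which understates changes of low genes. The line is the unit with 1 library each, so the spread behind the p-values holds differences between lines and library noise together. Among controls it also holds the effects of the knock-down and the overexpression. Models were also run on simulated normal values with planted differences. These values had no lower limit and no library that shifted as a whole, so the run does not show how the models behave on such data. The share of planted differences that was found is not reported here. Groups came from the labels. The 39 genes, the lists and the roles were chosen with earlier results of these data known. Genes are named if they passed a test or were among the 6 lowest p in a comparison or the 8 highest SD. They are also named if they had the highest mean of their role, a promoter peak or 1 of the 3 largest differences of a pair. At most 3 genes of each other list are named by p. Further values are given for members of each role. IFNAR1, IKBKE, CXCL10 and other induced genes that did not pass the filter were picked after their values were seen. Some results on genes outside the list are not reported here. Positions are from GENCODE 44 (GRCh38) and promoters from RefSeq (GRCh38.p14). Python 3.11.15 with pandas 2.3.3, scipy 1.17.1 and matplotlib 3.10.9 was used. Alternatives were other pseudocounts, filters, scalings, a covariate, and leaving out lines.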

Additional observations from a re-analysis of the deposited data

Results flagged for a closer look

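Each of the 31 tested genes was checked for a single line standing apart among the 10 mutant lines, by the gap to the nearest line over the whole range, against Dixon's limit for 10 samples. About 1 in 20 groups passes this limit by chance, and 3 of the 31 genes did. IRF9 was at 7.51 in Y234C, and the next line was at 2.86. IFITM3 was at 12.63 in R273H, and the next line was at 10.70. SAMD9 was at 2.59 in Y234C, where the next lowest line was at 3.94. R273H and Y234C are also the libraries in which 35.2% and 42.3% of all genes tested were at least 2-fold below the other lines, and the part of this in the flagged values was not tested.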

How the results depend on the processing

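In both comparisons 0 genes of the list were called in every one of the alternatives (22 and 19 settings), with a lowest adjusted p (limma) between 0.217 and 0.970 for mutant against control lines and between 0.124 and 1.00 for contact against structural mutants. Leaving out 1 line at a time kept both counts at 0 and moved the median difference between 0.44 (without the library labelled WTOE) and 0.85 for mutants against controls, and between -0.12 (without R248W) and 0.51 (without R273H) for contact against structural mutants. Counts past 2-fold fell under a pseudocount of 5 from 15 to 6 for WTKD against WT and from 14 to 7 for R248W against R248Q, since a larger pseudocount shrinks differences of low genes. With a median taken without R273H, Y234C and the library labelled WTOE, an alternative chosen after seeing the data, 7 genes in place of 4 passed 2-fold in Y163C. Promoter peaks in the WTOE list went from 2 to 0 when only peaks with a −log10 q of at least 5 were kept, where 0.196% of all genes had one, and to 5 in a window of 10000 bp on either side (12.1% of all genes), which also gave 1 in R273H (IRF1, beside 6.83% of all genes). For the 6 genes of lowest p in each comparison, 117 gene-level values under the alternatives kept the side of an unadjusted p of 0.05, 22 lost it, 11 gained it and none changed direction. Other total counts stayed within 1.5 times, but counts in 1 direction did not. Of the 26 such counts for single lines 7 moved further under quantile normalization and 7 with the other median, under which WTKD went from 5 higher and 6 lower to 3 and 11. Of the 8 for pairs of lines 5 moved further under a pseudocount of 5 and 1 under quantile normalization. The median difference of mutants against controls fell from 0.73 to 0.27 under a pseudocount of 5 and to 0.18 with the stricter filter. Over all genes tested the median was -0.04 and -0.14 in these settings. The SD of the list's median between lines was 1.19. It exceeds the main difference of 0.73 itself, so a change smaller than this SD does not show that the difference is stable. No paired analysis was possible because each line has 1 library and the labels give no shared replicate numbers.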

Other observations

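The tested genes outside the list whose levels over the 13 lines were most like the median profile of the list included PIR (Pearson r 0.910), a nuclear iron-binding protein, MBD5 (0.908), TTC19 (0.899), PAM (0.898), ACSL1 (0.894) and DDX60 (0.893), and FBXW2, AC115618.2 and SLC24A1 at 0.873 to 0.879. DDX60, an RNA helicase, is the one among those named that is known as interferon-induced. It was listed at 0 in the library labelled WTOE, was at 0.45 in R273H and 0.86 in Y234C, and reached 3.67 in R248W and Y220C. These genes were picked as the highest correlations over all genes tested, on 13 points. Those named other than PIR and AC115618.2 had their lowest levels in the library labelled WTOE, R273H and Y234C. PIR was at 5.39 in Y234C but at 5.29 in WT, and AC115618.2 was at 4.73 in Y234C but at 4.23 in Y163C.

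CXCL10, a chemokine induced by interferon that did not pass the filter, was above 0 in R248W (0.92), R273C (2.60) and G245S (2.06) only. These are the lines with the highest median of the list. Its relatives CXCL9 and CXCL11 were listed at 0 in every line. CXCL10 was picked after its values were seen, and other induced genes that did not pass the filter had other lines. IFI30 was above 0 only in Y234C (2.45), and EPSTI1 only in WTKD (0.40) and Y234C (0.92). GBP4 was above 0 only in Y220C (0.10) and ETV7 only in Y163C (0.32). APOL1 was highest in R273C (2.31) and listed at 0 in G245S, and RTP4 was listed at 0 in every line.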
